A study of Homo sapiens with 28 samples.

Results

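The Notch genes described in LNCaP cells were 3 receptors (NOTCH1, NOTCH2, NOTCH3), 3 ligands (JAG1, JAG2, DLL1), the DNA-binding factor RBPJ and 3 repressors of the HES and HEY family (HES1, HES6, HEY1). These 10 genes were taken by their gene symbols from the 61815 human genes of the count table, and all 10 passed the filter on low counts in both experiments. LNCaP is an androgen-dependent human prostate cancer line. RNA-seq was run on 28 libraries in 8 groups, and all cells had been held for 72 h in androgen-deprived (charcoal-stripped serum) medium before treatment. In the 24 h experiment, 3 libraries each came from cells given 0.1% DMSO (vehicle), 1 µM Senexin B, 0.1 nM R1881 or both agents. This Senexin B dose is that of the labels, and the study's text gives a higher one for LNCaP cells. In the 72 h experiment, 4 libraries each came from cells given 0.1% DMSO, 500 nM SNX631, 1 nM R1881 or both. R1881 is a synthetic androgen, while SNX631 and Senexin B both inhibit the Mediator kinases CDK8 and CDK19. The model is 1 cell line grown in wells, with no stroma. The study's text states at least 3 biological replicates per treatment. The labels do not say whether the replicates came from separate cultures, so p-values measure the spread between these libraries only. The experiments differed at once in time, R1881 dose and inhibitor, so these cannot be told apart between them.

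Notch receptors sit in the cell membrane and are cut by proteases when a Jagged or Delta-like ligand on a neighbouring cell binds them. The freed intracellular domain enters the nucleus, joins RBPJ and a Mastermind coactivator on DNA, and turns on genes that include HES1 and HEY1, which encode repressors of transcription. CDK8 with cyclin C can be drawn to that complex, where it phosphorylates the intracellular domain ahead of its breakdown. HES6 belongs to the same family but is known to oppose HES1. Without bound receptor domain, RBPJ works with corepressors, among them the Groucho proteins of the TLE family and CTBP1.

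Library totals ran from 9846595 to 15248512 counts, apart from 1 vehicle library at 24 h with 33809419. Levels are given as CPM, in which the libraries are scaled to one common total, after TMM scaling over all 28. All 8 luminal prostate markers looked at had a median over 1 CPM, with a sum of 3101 to 3881 CPM, whereas 0 of 4 basal, 0 of 6 neuroendocrine and 0 of 5 leukocyte markers did. Of 6 fibroblast markers, 3 had a median over 1 CPM (COL1A1, COL3A1 and PDGFRB). Their list summed to 28.2 to 31.3 CPM with vehicle and 16.4 to 18.3 CPM with R1881 at 24 h, and to 34.2 to 38.0 and 18.9 to 26.1 CPM at 72 h. COL1A1 ran from 7.44 to 30.9 CPM, COL3A1 from 0.864 to 12.8 CPM and PDGFRB from 0.521 to 2.14 CPM. COL1A2 and DCN stayed at or below 0.173 CPM, and LUM at or below 0.976 CPM. Of 4 endothelial markers only VWF had a median over 1 CPM, at no more than 4.50 CPM. With Senexin B at 24 h the fibroblast sum was 22.8 to 23.9 CPM without and 10.3 to 12.5 CPM with R1881, and with SNX631 at 72 h it was 31.4 to 33.9 and 14.3 to 17.2 CPM, lower than without inhibitor in each case. The luminal sum was 3840 to 3881 CPM with vehicle and 3322 to 3393 CPM with Senexin B at 24 h, and 3452 to 3495 and 3101 to 3177 CPM with vehicle and SNX631 at 72 h. With R1881 alone the luminal sum was 3563 to 3663 CPM at 24 h, below vehicle, and 3741 to 3847 CPM at 72 h, above vehicle. Within that list, KLK3 ran from 0.690 to 146 CPM and TMPRSS2 from 14.0 to 267 CPM over the libraries. The list sums thus moved with R1881 and with the inhibitors, and their part in the results below was not tested. The model is 1 cell line with no stroma, so these lists are not counts of fibroblasts or endothelial cells. Fewer LNCaP cells with such RNA and less RNA per cell cannot be told apart in such libraries.

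Per unit of exon length, the order of the members over the 8 group means was RBPJ (17.5 RPKM, the CPM per kilobase of exon), JAG2 (16.5), HES6 (15.9), NOTCH3 (11.4), NOTCH2 (6.12), JAG1 (5.0), NOTCH1 (4.10), HEY1 (1.92), DLL1 (1.46) and HES1 (0.861). Of the neighbours in that order, JAG2 and HES6 differed by less than the pooled SD between replicates of either (0.725 and 0.873 RPKM), whereas the others were farther apart. The order was not the same in each group, since the group means of RBPJ ran from 12.4 to 25.3 RPKM and those of HES6 from 8.74 to 25.6 RPKM. NOTCH3 led in vehicle at 24 h with 16.2 RPKM, ahead of JAG2 with 15.2 and RBPJ with 12.4. The lowest members in vehicle were HES1 at 24 h, with 0.544 RPKM, and HEY1 at 72 h, with 0.306 RPKM, next to HES1 with 0.364. Counts behind the values ran from 7 to 46 for HES1, from 3 to 171 for HEY1 and from 33 to 234 for DLL1, and were at least 193 in every library for the other 7 members. RPKM, which corrects for transcript length, serves only for this comparison between genes.

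**Figure D1:**
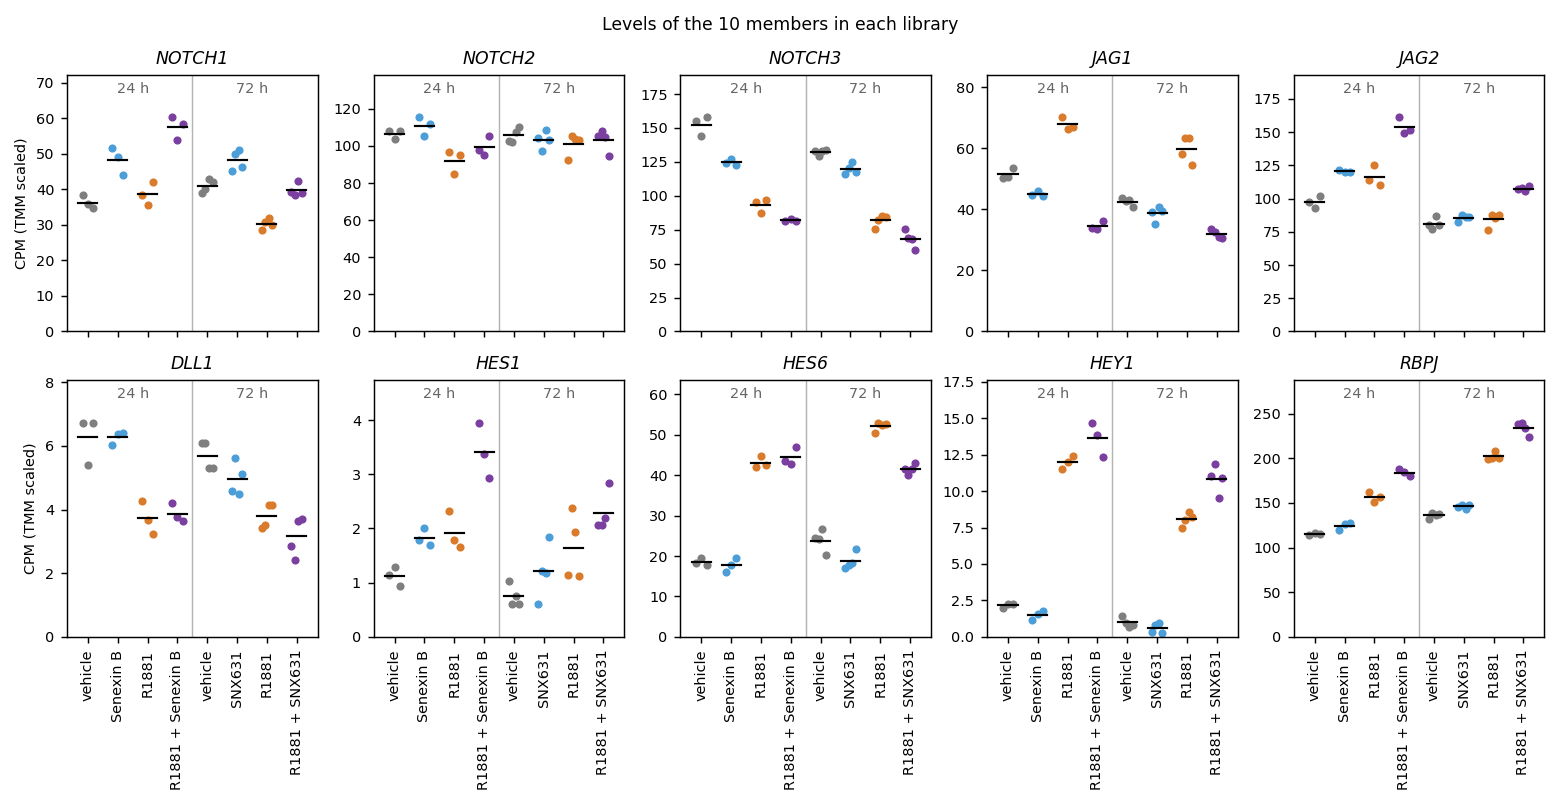
CPM of each of the 10 members (one panel each, y axis from 0) in every library, with points for libraries, black bars for group means, 24 h groups to the left of the vertical line and 72 h groups to the right. HEY1 and HES6 stand higher in every R1881 library than in every library without it of the same experiment, NOTCH3 stands lower, and JAG1 is high with R1881 alone and low with R1881 plus inhibitor.

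Calls were made with edgeR's quasi-likelihood test at the limits the study states, a fold change over 1.5 and a false discovery rate (FDR) under 0.01 over all genes tested. Whether androgen alters the Notch genes was asked with R1881 against vehicle. At 24 h, 5 of the 10 members were called, 3 higher (HES1, HES6, HEY1) and 2 lower (NOTCH3, DLL1), where 19% of 15948 genes tested were called, 9.81% higher and 9.19% lower. At 72 h, 4 were called, 3 higher (HES1, HES6, HEY1) and 1 lower (NOTCH3), beside 19.8% of 16074 genes, 9.70% higher and 10.1% lower. The same question in cells that also had inhibitor gave 5 members under Senexin B (HES1, HES6 and HEY1 higher, NOTCH3 and DLL1 lower), beside 18.9% of genes, 9.97% higher and 8.90% lower. Under SNX631 it gave 6, those 5 and RBPJ, which was higher, beside 22% of genes, 10.1% higher and 12% lower. With library totals as the scaling, 1299 genes were called higher and 2121 lower at 72 h without inhibitor (1559 and 1626 with TMM), and 1311 and 2435 under SNX631 (1619 and 1924 with TMM). The median absolute log2 fold change of the members was 0.58 at 24 h and 0.57 at 72 h without inhibitor, against 0.26 and 0.26 over all genes tested. The members were chosen with earlier results of these data known. These shares and medians therefore do not show whether Notch genes respond more than other genes.

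The inhibitors on their own moved no member past both limits. Senexin B without R1881 gave 0 calls in edgeR and 0 in DESeq2 (3.79% of genes were called in edgeR), 4 members at the FDR limit alone (25.1% of genes) and 7 at an unadjusted p under 0.05. SNX631 without R1881 gave 0 calls in edgeR and 0 in DESeq2 (4.77% of genes in edgeR), 4 at the FDR limit alone (26.9%) and 7 at an unadjusted p under 0.05. The share of all genes at that unadjusted limit is not given, here or below. The counts at it are therefore not rates and are not read as a response of the members. With R1881 present, Senexin B gave 2 calls, JAG1 lower and HES1 higher (3.12% of genes, 1.50% lower and 1.61% higher). SNX631 with R1881 gave 1 call, JAG1 lower (4.12% of genes, 2.24% lower).

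**Figure D2:**
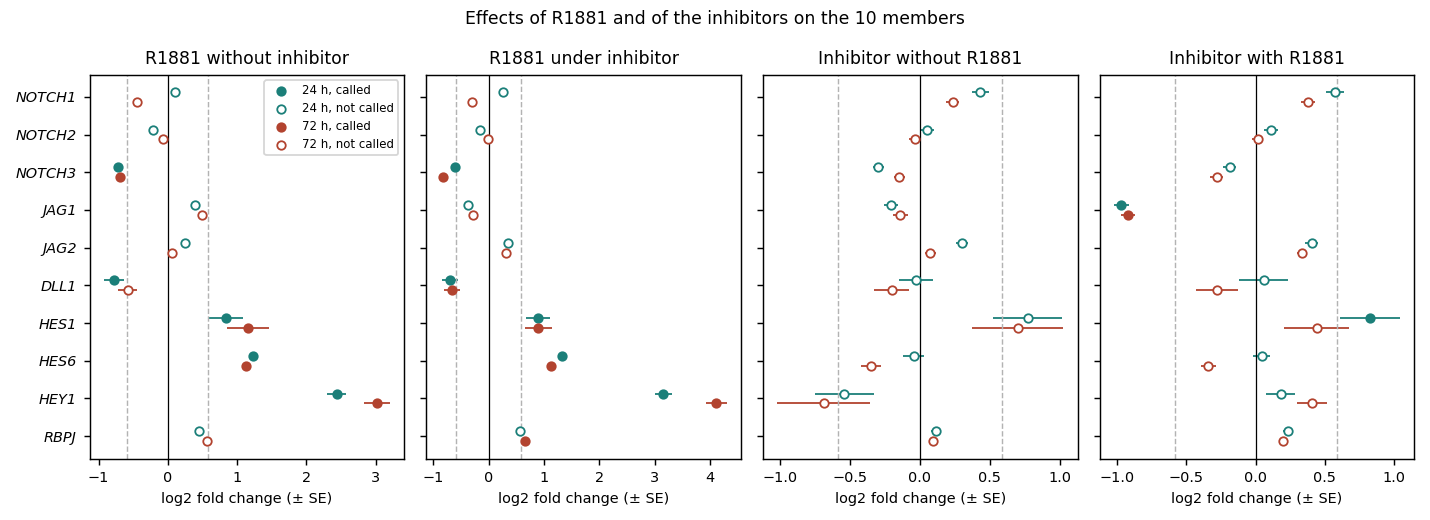
Log2 fold change with its standard error for each member (y axis) under the 4 kinds of comparison (panels), at 24 h in green and at 72 h in red, filled where called and open where not, with dashed lines at a fold change of 1.5. HEY1 reaches 2.43 to 4.12 with R1881, and JAG1 is the member called lower with either inhibitor in the presence of R1881.

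Among the receptors, NOTCH3 fell with R1881 in all 4 comparisons. NOTCH3 (chr19:15159038-15200981, minus strand, GRCh38) encodes a receptor known for its role in vascular smooth muscle and in several carcinomas. In vehicle at 24 h its level was 155, 144 and 158 CPM, and with R1881 it was 95.3, 87.2 and 96.7 CPM. At 72 h the vehicle libraries had 133, 129, 133 and 134 CPM, and those with R1881 had 75.5, 82.5, 85.0 and 84.5 CPM. No R1881 library reached the lowest vehicle library of its experiment. The log2 fold change was -0.72 ± 0.04 (standard error, SE; FDR 6.50e-16, edgeR) at 24 h and -0.69 ± 0.04 (FDR 3.33e-17) at 72 h. Under Senexin B it was -0.61 ± 0.04 and under SNX631 -0.83 ± 0.04, and the R1881 effect did not pass a test of its difference with and without inhibitor (FDR 0.388 and 0.156, edgeR). The inhibitors went the same way by less: in the absence of R1881 the NOTCH3 values were -0.30 (Senexin B) and -0.15 (SNX631), and in its presence -0.19 and -0.28, all 4 at FDR under 0.01 and under the fold limit. With the inhibitor alone NOTCH3 was at 124, 127 and 123 CPM (Senexin B) and at 116, 120, 125 and 118 CPM (SNX631), below every vehicle library of the same experiment. With R1881 and inhibitor it was at 81.1, 83.0 and 81.7 CPM at 24 h and at 75.4, 69.2, 68.0 and 60.4 CPM at 72 h. NOTCH3 was therefore lowest, in both experiments, in the cells given both agents.

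NOTCH1, the receptor most studied in leukaemia and in development, passed no fold limit but differed between the experiments. It lies at chr9:136494433-136545786 on the minus strand. At 24 h vehicle gave 38.5, 35.8 and 34.6 CPM and R1881 gave 38.4, 35.5 and 42.1 CPM, so the groups overlapped (log2 fold change 0.11 ± 0.07, FDR 0.161, edgeR). At 72 h vehicle gave 38.9, 40.1, 42.8 and 42.0 CPM and R1881 gave 28.6, 30.8, 31.9 and 29.9 CPM, with every R1881 library below every vehicle library (log2 fold change -0.44 ± 0.05, FDR 5.14e-09). Under Senexin B the R1881 effect was 0.25 ± 0.06 (FDR 6.98e-04), with all libraries higher, and under SNX631 it was -0.29 ± 0.05 (FDR 1.24e-06), with all lower. The R1881 effects on NOTCH1 past the FDR limit thus had opposite signs in the 24 h and 72 h experiments, and that under Senexin B did not pass the limit with library totals as the scaling (0.18, FDR 0.0150) or without replicate 3 of Senexin B (0.18, FDR 0.0179). Without inhibitor, the R1881 effect at 72 h minus that at 24 h was -0.54 ± 0.09 (FDR 7.61e-06, edgeR over all 28 libraries). Both inhibitors went with more NOTCH1 mRNA: 0.43 ± 0.06 and 0.57 ± 0.07 on the log2 scale for Senexin B without and with R1881, and 0.23 ± 0.05 and 0.38 ± 0.05 for SNX631. The 4 values passed the FDR limit, the largest of them a 1.49-fold difference that passed the fold limit without replicate 3 of R1881 or replicate 2 of both agents (up to 0.63). With Senexin B alone NOTCH1 was at 51.7, 49.2 and 44.2 CPM and with SNX631 alone at 45.3, 50.03, 51.2 and 46.3 CPM. In each comparison of NOTCH1 every inhibitor library was above every library without inhibitor. The highest NOTCH1 levels of the series, 60.3, 54.0 and 58.5 CPM, were in cells given R1881 and Senexin B.

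NOTCH2, the receptor that acts in liver bile duct and B cell development, kept to a narrow range of 84.7 to 115 CPM over all 28 libraries. It lies at chr1:119911553-120069626 on the minus strand. Its only R1881 effects past the FDR limit were at 24 h, with log2 fold changes of -0.22 ± 0.05 (FDR 2.38e-04, edgeR) without inhibitor and -0.16 ± 0.05 (FDR 0.00555) under Senexin B. At 72 h they were -0.07 ± 0.04, with a 95% interval of -0.15 to 0.02, and -0.01 ± 0.04, with an interval of -0.09 to 0.07. The near-identical copies NOTCH2NLA, NOTCH2NLB, NOTCH2NLC and NOTCH2NLR had at most 4.99% of the NOTCH2 count each and 6.88% to 12.7% together, with ranges that overlapped between vehicle and R1881 at both times. How reads were shared between NOTCH2 and its copies was not given in the sources used here, so the NOTCH2 values and their small differences are uncertain.

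The ligand JAG1 was the member with the clearest combined response. JAG1 (chr20:10637684-10673999, minus strand) encodes Jagged 1, a membrane ligand that binds Notch receptors on adjoining cells. At 24 h it was at 50.2, 50.6 and 53.5 CPM in vehicle, 44.7, 46.1 and 44.4 CPM with Senexin B, 70.1, 66.5 and 67.1 CPM with R1881, and 34.0, 33.6 and 36.3 CPM with both. At 72 h it was at 43.7, 42.6, 42.9 and 40.7 CPM in vehicle, 39.2, 35.1, 40.9 and 39.4 CPM with SNX631, 58.2, 63.3, 63.4 and 54.5 CPM with R1881, and 33.6, 32.7, 30.9 and 30.5 CPM with both. In each experiment the R1881 libraries were the 3 or 4 highest and those with both agents the 3 or 4 lowest, with no overlap with any other group.

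Without inhibitor, JAG1 was 1.31-fold higher with R1881 at 24 h (log2 0.38 ± 0.05, FDR 1.56e-08, edgeR) and 1.41-fold higher at 72 h (0.49 ± 0.05, FDR 6.78e-11), under the fold limit in both. Under inhibitor the sign was the other way, with log2 fold changes of -0.38 ± 0.06 (FDR 7.85e-07) under Senexin B and -0.29 ± 0.06 (FDR 2.05e-05) under SNX631. The difference between the R1881 effects with and without inhibitor was tested as an interaction: it was -0.76 ± 0.07 (FDR 9.25e-09, edgeR) at 24 h and -0.78 ± 0.07 (FDR 5.07e-10) at 72 h. JAG1 was the 1 member of 10 called in that test in each experiment, where 0.577% and 1.19% of all genes were called. Put the other way, Senexin B lowered JAG1 by -0.97 ± 0.05 (FDR 2.63e-15) in the presence of R1881 and went with -0.21 ± 0.05 (FDR 0.00106) in its absence. SNX631 lowered it by -0.92 ± 0.05 (FDR 3.40e-17) with R1881, and without R1881 the value was -0.14 ± 0.05 (FDR 0.0355), with overlapping groups. JAG1 and an antisense transcript share 0.850% of its exon bases, and whether the counting used strand is not given in the sources used here.

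**Figure D3:**
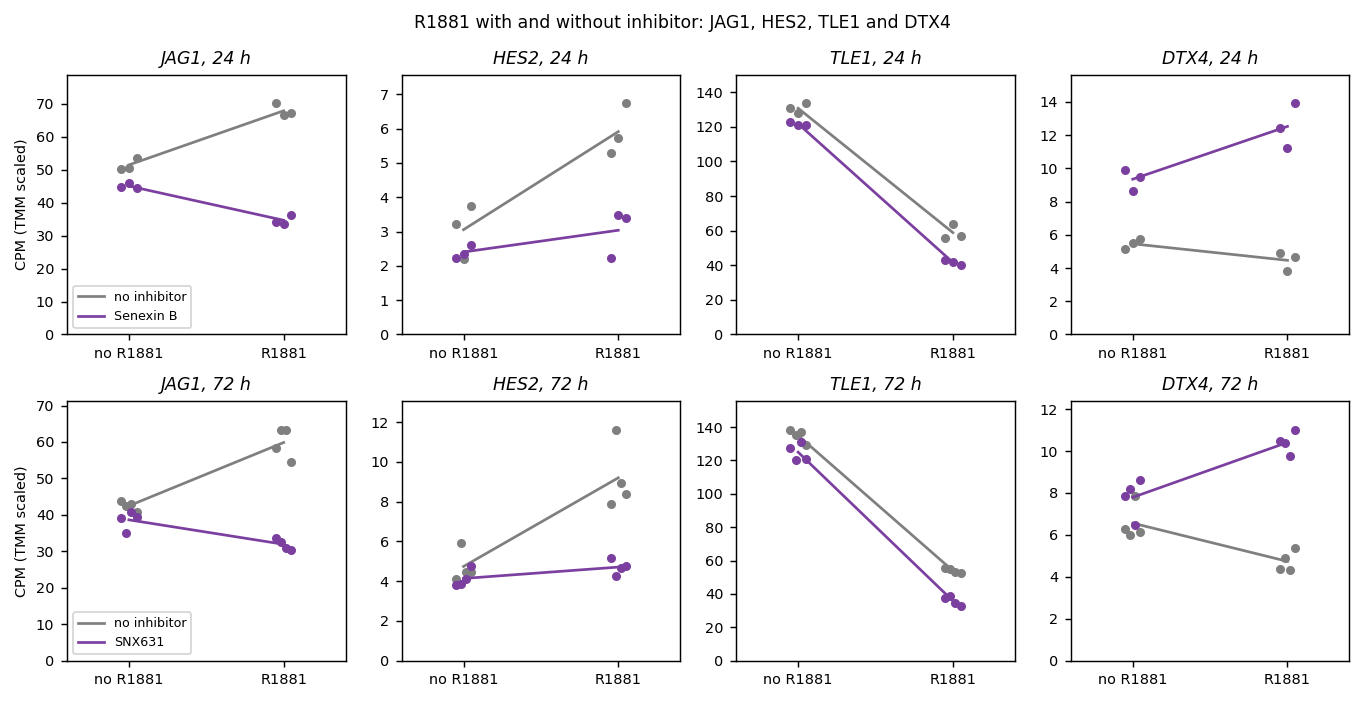
CPM (y axis from 0) with and without R1881 for JAG1, HES2, TLE1 and DTX4 (columns) at 24 h (upper row) and 72 h (lower row), with points for libraries and lines joining group means, grey without and purple with inhibitor. The JAG1 line runs upward without inhibitor and downward with it in both experiments, the DTX4 lines run the other way round, and both TLE1 lines run downward.

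JAG2, a second Jagged ligand (chr14:105140981-105168824, minus strand), was the most abundant ligand per unit length and passed no fold limit. At 24 h its group means were 97.2 ± 4.5 CPM (SD, n = 3) in vehicle, 121 ± 0.99 with Senexin B, 116 ± 7.8 with R1881 and 154 ± 6.2 with both. At 72 h they were 81.2 ± 4.2 (n = 4), 85.5 ± 2.1, 84.4 ± 5.2 and 108 ± 1.8 CPM in the same order, with SNX631 as the inhibitor. The group given both agents was the highest in both experiments, with no library of another group of its experiment reaching its lowest one. The interaction of R1881 and SNX631 at 72 h was 0.26 ± 0.06 (FDR 8.92e-04, edgeR), opposite in sign to that of JAG1 and under the fold limit, and at 24 h with Senexin B it was 0.10 ± 0.06 (FDR 0.434). A processed transcript on the same strand shares 7.33% of the JAG2 exon bases, and 20 of the 28 JAG2 counts held a fraction.

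DLL1, a Delta-like ligand (chr6:170282206-170306565, minus strand), was low in these cells and was lower with R1881 in all 4 comparisons, called in 3. Vehicle libraries had 6.73, 5.42 and 6.72 CPM at 24 h and R1881 libraries had 4.27, 3.66 and 3.24 CPM, without overlap. At 72 h vehicle libraries had 6.09, 6.08, 5.31 and 5.30 CPM and R1881 libraries had 3.42, 3.52, 4.15 and 4.15 CPM, again without overlap. The log2 fold change was -0.78 ± 0.14 (FDR 2.28e-05, edgeR) at 24 h and -0.58 ± 0.14 (FDR 3.25e-04) at 72 h, the latter a 0.668-fold level that lies just inside the fold limit and was not called. It was called with library totals as the scaling (-0.68), with a filter at a mean of 10 counts (-0.59), and without any single one of replicates 3 and 4 of vehicle or replicates 3 and 4 of R1881 (-0.61 to -0.63). Under Senexin B it was -0.70 ± 0.15 and under SNX631 -0.66 ± 0.14. Without replicate 2 of R1881 plus SNX631, the last of these was -0.55 and no longer called. No inhibitor effect on DLL1 passed the FDR limit, with values between -0.28 and 0.06.

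RBPJ, the protein through which cut receptors reach DNA (chr4:26163455-26435131, plus strand), had more mRNA with R1881 in all 4 comparisons, past the fold limit in 1. At 24 h it was at 114, 116 and 115 CPM in vehicle and at 162, 151 and 157 CPM with R1881. At 72 h it was at 132, 139, 137 and 138 CPM in vehicle, 199, 201, 208 and 201 CPM with R1881, and 239, 240, 234 and 224 CPM with R1881 and SNX631. Every R1881 library was above every library without R1881 in its experiment. The log2 fold changes were 0.44 ± 0.04 (FDR 4.33e-12, edgeR) at 24 h, 0.56 ± 0.04 under Senexin B, 0.56 ± 0.03 (FDR 1.94e-19) at 72 h and 0.66 ± 0.03 (FDR 2.12e-22) under SNX631. The call under SNX631 was lost when counts were scaled by library totals alone, where the value was 0.56. Senexin B and SNX631 in the presence of R1881 went with 0.23 ± 0.04 and 0.20 ± 0.03 more RBPJ on the log2 scale, both past the FDR limit alone. The 4 RBPJ pseudogenes looked at were at 0 counts in all 28 libraries.

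HEY1, a repressor that is a direct target of Notch in many tissues (chromosome 8, 79764010 to 79767863, minus strand), had the largest rise of any member. At 24 h it was at 1.99, 2.28 and 2.24 CPM in vehicle and at 11.5, 12.0 and 12.4 CPM with R1881. At 72 h it was at 1.46, 0.976, 0.675 and 0.844 CPM in vehicle and at 7.46, 8.02, 8.57 and 8.21 CPM with R1881. Thus every R1881 library was several times above the highest vehicle library of its experiment. The rise was 5.41-fold at 24 h (log2 2.43 ± 0.13, FDR 8.14e-17, edgeR) and 8.12-fold at 72 h (3.02 ± 0.18, FDR 3.62e-17). The vehicle libraries had 21 to 78 HEY1 counts at 24 h and 8 to 17 at 72 h, so the size of the 72 h fold rests on few reads.

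With both R1881 and Senexin B, HEY1 was at 14.7, 13.8 and 12.3 CPM, which overlapped the range with R1881 alone, and with Senexin B alone at 1.19, 1.60 and 1.77 CPM, below the 3 vehicle libraries. Under Senexin B the R1881 effect on HEY1 was 8.90-fold (3.15 ± 0.15) and under SNX631 17.4-fold (4.12 ± 0.19). The level with SNX631 alone was 0.345, 0.836, 0.948 and 0.251 CPM, or 3 to 12 counts, so that last fold rests on few reads. The interactions were 0.72 ± 0.23 (FDR 0.0751, edgeR) at 24 h and 1.10 ± 0.35 (FDR 0.0318) at 72 h, and neither passed the FDR limit of 0.01. With R1881 present, SNX631 gave 11, 11.9, 9.55 and 10.9 CPM, all above the 4 libraries with R1881 alone (log2 0.41 ± 0.11, FDR 0.00207, under the fold limit). HEY1 was also the 1 member called between the vehicle groups, lower at 72 h by -1.16 ± 0.23 (FDR 4.41e-05), where 5.97% of 16672 genes were called and 2.02% called lower.

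HES6 (chr2:238238267-238240662, minus strand), the family member that opposes HES1, rose with R1881 by a like amount in all 4 comparisons. Vehicle libraries at 24 h had 18.3, 19.6 and 17.7 CPM and R1881 libraries had 42.1, 44.7 and 42.5 CPM. At 72 h vehicle libraries had 24.4, 24.2, 26.6 and 20.2 CPM and R1881 libraries had 50.4, 52.9, 52.3 and 52.6 CPM. The R1881 libraries did not overlap with the vehicle libraries and lay close to one another. The log2 fold changes were 1.23 ± 0.07 (FDR 5.93e-17, edgeR) and 1.13 ± 0.06 (FDR 7.06e-19) without inhibitor, 1.32 ± 0.07 under Senexin B and 1.13 ± 0.06 under SNX631. With both agents HES6 was at 43.5, 42.7 and 46.9 CPM at 24 h, overlapping R1881 alone, and at 41.5, 40.0, 41.4 and 42.9 CPM at 72 h, below R1881 alone. The interactions were 0.09 ± 0.10 and 0.01 ± 0.09, with 95% intervals of -0.10 to 0.28 and -0.17 to 0.18. Senexin B gave values of -0.05 ± 0.08 and 0.04 ± 0.06 without and with R1881 (FDR 0.681 and 0.635), and SNX631 gave -0.35 ± 0.07 and -0.34 ± 0.05 (FDR 1.92e-04 and 1.71e-06), under the fold limit.

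HES1 (chr3:194136145-194138732, plus strand) is the standard readout of Notch activity, and its promoter is known to bind RBPJ and to be repressed by its own protein at N boxes. Of the 10 members, 8 had a promoter window in the RefSeq table used (GRCh38.p14), and none was found there for DLL1 and HEY1. RBPJ had 5 windows and each other member found there had 1. The counts below are of members and the shares are of windows, so the 2 are not on the same unit. In the 250 bases before each start site, the RBPJ core TGGGAA (either strand) occurred in 2 members, HES1 and RBPJ, and in 20.8% of 35116 windows of that length. The N box CACNAG occurred in 3, HES1, NOTCH3 and RBPJ, and in 32% of windows. The stretch from 250 to 11 bases before the start site is shown for HES1, where 2 RBPJ cores and 3 N boxes (1 of them on the other strand) are in capitals, and for JAG1, where none of these letters occur, because these were the members called with inhibitor.
HES1 (chr3:194135898-194136137, plus strand): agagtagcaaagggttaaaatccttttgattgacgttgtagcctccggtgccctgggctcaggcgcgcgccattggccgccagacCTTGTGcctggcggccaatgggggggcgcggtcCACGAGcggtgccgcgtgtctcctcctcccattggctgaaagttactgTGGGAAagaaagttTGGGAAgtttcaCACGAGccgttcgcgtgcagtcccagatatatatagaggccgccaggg
JAG1 (chr20:10674010-10674249, minus strand): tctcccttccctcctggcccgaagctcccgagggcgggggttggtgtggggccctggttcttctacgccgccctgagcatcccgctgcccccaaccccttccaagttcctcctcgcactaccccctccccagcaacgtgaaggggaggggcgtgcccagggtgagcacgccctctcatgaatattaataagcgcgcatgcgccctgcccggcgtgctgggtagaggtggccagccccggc
The RBPJ cores of HES1 began 84 and 70 bases before the start site.

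HES1 had the lowest mean level of the members over the 8 groups, and its calls were lost most often when single libraries were left out. At 24 h it was at 1.14, 1.28 and 0.947 CPM in vehicle (12 to 33 counts), 1.79, 2.02 and 1.70 CPM with Senexin B, 2.32, 1.79 and 1.66 CPM with R1881, and 3.95, 3.38 and 2.92 CPM with both. The 4 groups stood in steps: all libraries with 1 agent were above all vehicle libraries and below all libraries with both. The log2 fold change with R1881 was 0.84 ± 0.25 (FDR 0.00492, edgeR) without and 0.89 ± 0.21 (FDR 5.66e-04) with Senexin B, and that with Senexin B was 0.77 ± 0.24 (FDR 0.0136) without and 0.83 ± 0.22 (FDR 0.00340) with R1881. The interaction was 0.06 ± 0.34, with a 95% interval of -0.62 to 0.73.

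At 72 h HES1 was at 1.03, 0.601, 0.759 and 0.614 CPM in vehicle (8 to 12 counts) and at 1.14, 2.37, 1.94 and 1.12 CPM with R1881 (log2 1.16 ± 0.31, FDR 0.00143, edgeR). The groups did not overlap, but 2 of the R1881 libraries lay close to the highest vehicle library. With SNX631 alone it was at 0.604, 1.22, 1.19 and 1.84 CPM, overlapping vehicle (0.70 ± 0.33, FDR 0.0908), and with both agents at 2.06, 2.07, 2.20 and 2.85 CPM. R1881 under SNX631 gave 0.90 ± 0.25 (FDR 0.00174), and SNX631 with R1881 gave 0.44 ± 0.24 (FDR 0.133). With DESeq2 the calls for R1881 at 24 h and for Senexin B with R1881 were lost (adjusted p 0.0266 and 0.0233). Each of the HES1 calls other than R1881 under Senexin B was lost without some single library: replicate 3 of vehicle or replicate 1 of R1881 for R1881 at 24 h, where the value went down to 0.65, replicate 2 or 3 of R1881 or replicate 1 of both agents for Senexin B with R1881 (down to 0.70), replicate 2 of R1881 at 72 h (0.91), and replicate 1 of SNX631 or replicate 4 of both agents for R1881 under SNX631 (down to 0.69).

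Between the experiments, 0 of 10 members were called for the R1881 effect at 72 h minus 24 h, where 1.88% of 16672 genes were called by edgeR. DESeq2 called 0, 5 had an unadjusted p under 0.05 and 1 passed the FDR limit alone, NOTCH1 as above (7.54% of genes). Without replicate 2 of R1881 at 24 h the NOTCH1 value was past the fold limit, at -0.61. For the inhibitor effect without R1881, 0 were called by edgeR (0.474% of genes) or DESeq2, 0 passed the FDR limit (2.21%) and 4 had an unadjusted p under 0.05. No share of all genes is given for the unadjusted limit in either comparison. The nearest was JAG2, at -0.23 ± 0.06 (FDR 0.0181, edgeR). Senexin B and SNX631 were used at unlike doses and times, so their values are given side by side only: in the presence of R1881, -0.97 and -0.92 for JAG1, 0.57 and 0.38 for NOTCH1, 0.40 and 0.33 for JAG2, -0.19 and -0.28 for NOTCH3, 0.83 and 0.44 for HES1, and 0.04 and -0.34 for HES6.

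The wider pathway was read from a list of 62 other genes, of which 47 were tested at 24 h and 48 at 72 h. With R1881, 10 of 47 were called at 24 h (5 higher, 5 lower) and 12 of 48 at 72 h (6 higher, 6 lower), and under inhibitor 8 (4 higher, 4 lower) and 12 (6 higher, 6 lower). These shares lie near the 19% to 22% of all genes. By direction, 9.70% to 10.1% of all genes were called higher and 8.90% to 12% lower in these 4 comparisons. The roles below hold few tested genes, and differences between them were not tested. By role, 3 of 11 nuclear corepressors fell and 0 rose in each of the 4 comparisons, 1 of 8 nuclear coactivators rose and 0 fell in each, and the 1 other ligand tested was called in none. Of the 9 other HES family and feedback genes listed, 3 were tested at 24 h and 4 at 72 h. At 24 h 3 of 3 rose without inhibitor and 1 of 3 under Senexin B, and at 72 h 2 of 4 rose and 1 fell both without and under SNX631. Of 11 endocytosis genes and ubiquitin ligases, 1 rose and 1 fell in both comparisons at 24 h, and 2 rose and 1 fell in both at 72 h. Of 4 glycosyltransferases 1 fell in 3 comparisons and 0 under Senexin B. Of 9 proteases that cut the receptor, 0 were called at 24 h without inhibitor and 1, PSEN2, was called higher in the other 3.

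The corepressors that fell were TLE1, TLE3 and CTBP1. TLE3 was at 193, 183 and 192 CPM in vehicle at 24 h and at 68.5, 67.5 and 67.2 CPM with R1881 (log2 -1.49 ± 0.04, FDR 2.49e-25, edgeR), and at 72 h its log2 fold change was -1.56 ± 0.04. TLE1 fell by 1.16 on the log2 scale at 24 h and by 1.33 at 72 h, and further under inhibitor (-1.55 and -1.81). The interactions of TLE1 were -0.39 ± 0.07 (FDR 2.21e-04) and -0.49 ± 0.06 (FDR 2.80e-07). CTBP1 fell by 1.23 and 1.18 without inhibitor and by 0.92 and 0.91 with it, and its interactions of 0.31 ± 0.05 (FDR 1.49e-04) and 0.27 ± 0.04 (FDR 1.96e-05) had the opposite sign. All 4 interactions were under the fold limit.

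Other genes of the list that rose with R1881 in all 4 comparisons were NEURL1B, NRARP and MAML2. NEURL1B, a ubiquitin ligase that acts on Notch ligands, had log2 fold changes of 1.17 ± 0.10 at 24 h and 1.14 ± 0.08 at 72 h. NRARP, a feedback inhibitor that is itself a Notch target, had 0.99 ± 0.08 and 0.72 ± 0.05. MAML2, a Mastermind coactivator, went from 0.190, 0.143 and 0.316 CPM in vehicle to 5.56, 4.38 and 5.42 CPM with R1881 at 24 h, a rise of 4.30 ± 0.27 from 2 to 11 counts, and of 3.93 ± 0.29 at 72 h. DTX3, a Deltex ubiquitin ligase, fell in all 4 (-1.26 ± 0.18 and -1.08 ± 0.13 without inhibitor), and LFNG, a glycosyltransferase that modifies the receptors, fell in 3 (-0.89 ± 0.19 and -0.75 ± 0.13 without inhibitor, and -0.95 ± 0.12 under SNX631). HES2, described with the inhibitors below, was called higher with R1881 alone at both times. The remaining calls with R1881 included DTX2 and PSEN2, a γ-secretase subunit, which rose at 72 h by 0.79 ± 0.08 and 0.67 ± 0.06, and HES4, called higher at 24 h (0.60 ± 0.11) and under SNX631 (0.61 ± 0.08). HES7 was called lower at 72 h without and under SNX631, but its R1881 libraries had 0, 3, 2 and 2 counts, so no fold is given.

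**Figure D4:**
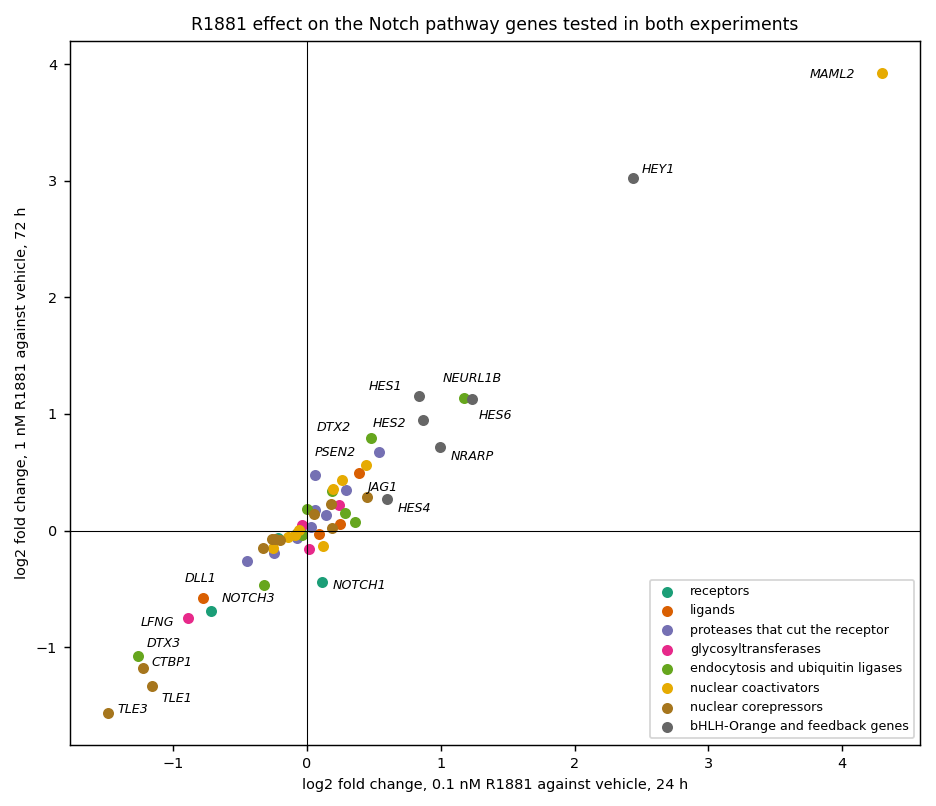
Log2 fold change with R1881 against vehicle at 24 h (x axis) and at 72 h (y axis) for the 57 Notch genes tested in both experiments, coloured by role. MAML2 and HEY1 are farthest to the upper right and the corepressors TLE1, TLE3 and CTBP1 are at the lower left, and NOTCH1 lies near 0 on the x axis and below 0 on the y axis.

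Senexin B gave calls for 1 of 47 genes of the list without R1881, beside 3.79% of all genes, and for 3 of 47 with it, beside 3.12%. SNX631 gave 0 of 48 without R1881 (in edgeR and in DESeq2, with 21 at an unadjusted p under 0.05), beside 4.77% of all genes, and 4 of 48 with it, beside 4.12%. No share of all genes is given for the unadjusted limit. DTX4, another Deltex ubiquitin ligase, was in 3 of these 4 comparisons. With both agents it was at 12.5, 11.2 and 13.9 CPM at 24 h against 4.91, 3.84 and 4.64 CPM with R1881 alone (log2 1.49 ± 0.13, FDR 1.18e-10, edgeR), and at 72 h the difference was 1.12 ± 0.11 (FDR 1.28e-10). Its interactions were 0.75 ± 0.18 (FDR 0.00936) and 0.87 ± 0.16 (FDR 1.21e-04), of the opposite sign to JAG1. HES2, a repressor of the HES family, rose with R1881 alone (0.87 ± 0.17 and 0.95 ± 0.13) and was lower with inhibitor in the presence of R1881 (-0.97 ± 0.19 and -0.99 ± 0.12). Its interaction was called at 72 h (-0.78 ± 0.19, FDR 0.00458) and did not pass at 24 h (-0.53 ± 0.28, FDR 0.352). TLE1 (-0.60 ± 0.05) and HES4 (0.65 ± 0.08) were the other calls with SNX631 and R1881. RITA1, which exports RBPJ from the nucleus, was the other call with Senexin B and R1881 (0.62 ± 0.05), and it is named after its value was seen.

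Over the 8 group means of log2 CPM, and among 13473 genes, the pattern of JAG1 was the least common of the members called at least 2 times. The genes most like it were SRSF5 (Pearson r = 0.952), ANTXR2 (0.949) and ID4 (0.937), and 10 genes had r over 0.9. For NOTCH3, DLL1, HES1, HES6 and HEY1, 598 to 1033 genes had r over 0.9. The genes most like HEY1 were PTK2B (0.998), PDLIM5 (0.997) and PACSIN2 (0.997), and those most like NOTCH3 were CLCN4 (0.995), SPTBN1 (0.995) and RAB17 (0.994). The nearest to HES6 were KCND2 (0.996), SLK (0.991) and EFCAB12 (0.991). The nearest to DLL1 were RNF208 (0.995), USP27X-DT (0.992) and LTBP2 (0.988), and the nearest to HES1 were TRMT61A (0.998), MRPS12 (0.993) and PDRG1 (0.991). The 8 points share the libraries and the scaling, so the values describe these groups only.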

How the data were processed

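RNA-seq of total RNA from LNCaP cells was analysed from a count table of 28 libraries in 8 groups (3 each at 24 h and 4 each at 72 h). The authors deposited an estimated count per gene (with a fraction in 16.9% of values above 0), which was rounded to a whole count here. Per the labels, libraries were made with a directional kit and the submitters' processing notes name FastQC, cutadapt 2.8, STAR 2.7.2b and featureCounts from Subread 2.0.3, with the builds GRCh38.p13 and GRCm39. The annotation release, the strand setting and the handling of multiply mapped reads are not given in the sources used here. The 2 added entries of the table were at 0 and left out.

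Counts were tested with edgeR 4.0.16 in R 4.3.3 (quasi-likelihood F test, TMM, one mean per group, and filterByExpr at 10 counts and a total of 15). Each experiment was fitted on its own over its 4 groups (15948 genes at 24 h, 16074 at 72 h), and all 28 libraries were fitted together (16672 genes) for differences between experiments. FDR is the Benjamini-Hochberg value over all genes tested, two-sided. The SE is the log2 fold change divided by the root of its F. RPKM used the merged exon length of GENCODE 29 (GRCh38) matched by gene ID, which is another release than that of the table, and gene positions are from GENCODE 29. Promoter windows are from RefSeq (GRCh38.p14), and the motifs, letters given where first used, were searched on both strands. Scripts were tested on simulated data. Depth limits HES1, HEY1 and DLL1 most.

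The 28 libraries were grouped by their labels. No replicate looked like a copy of another, as in all 36 pairs the counts differed beyond sampling noise (lowest chi-square per degree of freedom 1.23). Alternatives tried were RLE size factors, library totals, DESeq2 1.42.0, other filters, an FDR of 0.05 with no fold limit, a replicate block, 1 fit over all libraries, thinning to the smallest total, and leaving out each library. All 10 members are named in every comparison, as are genes of the pathway list called in at least 2 of the 8 R1881 and inhibitor effects and, for each member called in at least 2 of them, the 3 genes with the highest correlation. The members and the lists were chosen with earlier results of these data known.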

Additional observations from a re-analysis of the deposited data

Results flagged for a closer look

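The R1881 effect differed with and without inhibitor by a test of the interaction (edgeR, FDR under 0.01) for these of the 24 genes looked at. Those 24 were the members and the pathway list genes called in at least 2 effects, so they were picked in part for responding in these data. The share of all genes at the FDR limit alone is not given, so the number listed is not a rate. Past both limits, 0.577% (24 h) and 1.19% (72 h) of all genes were called. JAG1 had -0.76 with Senexin B at 24 h and -0.78 with SNX631 at 72 h, with all libraries of each R1881 group on one side of the other groups. DTX4 had 0.75 and 0.87, CTBP1 0.31 and 0.27, and TLE1 -0.39 and -0.49, so the sign of each was the same in both experiments. JAG2 (0.26) and HES2 (-0.78) passed at 72 h. Between the experiments the R1881 effect on NOTCH1 differed by -0.54 (FDR 7.61e-06, edgeR), with time, dose and experiment not to be told apart. NOTCH2 in replicate 1 of R1881 at 72 h, at 92.4 CPM, lay apart from the other 3 libraries of its group. It was 1 of 40 groups of 4 libraries looked at, of which chance gives about 2.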

How the results depend on the processing

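Of 1125 values of members under settings other than leaving out a library, 1056 kept their direction and side of the limits, 51 were newly called, 5 were lost and 13 changed sign. Of the 51 newly called, 49 came from the FDR of 0.05 with no fold limit, a looser rule that can only add calls. Scaling by library totals shifted the median gene by -0.10 (R1881 at 72 h) and -0.11 (R1881 under SNX631) on the log2 scale and changed the sign of JAG2 with R1881 at 72 h (-0.0477), NOTCH2 with SNX631 and R1881 (-0.0179), NOTCH3 between R1881 effects (-3.06e-04) and NOTCH2 between vehicles (0.0299). NOTCH2 with R1881 under SNX631 became 0.0162 without filter, 2.90e-04 in 1 fit of all libraries and 0.0103 when thinned. Thinning also gave NOTCH3 between R1881 effects -0.0118, HES1 between inhibitor effects 0.19, DLL1 with Senexin B 0.0306 and DLL1 in the 24 h interaction -0.0075, and no filter gave RBPJ between inhibitor effects 0.00765. These sign changes were all in values that were not called, and their cause was not tested. Thinning lost the HES1 calls for R1881 at 24 h (FDR 0.0536) and under SNX631 (FDR 0.0184). DESeq2 called 1 member, not 2, for Senexin B with R1881.

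Replicate numbers were not used to pair the samples in the main fits. At 24 h same-numbered libraries correlated at -0.038 to 0.134 (1 of 18 pairs over 0.1), with a median of 0.033 against -0.020 for other pairs. At 72 h the range was -0.036 to 0.076 (0 of 24 over 0.1), with medians of -0.0013 and -0.0012. The libraries that correlated best with their own number were 7 of 12 at 24 h and 2 of 16 at 72 h. These values do not settle whether the 24 h libraries were paired. The replicate block kept the JAG1 interactions at -0.77 and -0.78, gave 5 member calls for R1881 at 24 h and 4 at 72 h, and changed the sign of HES1 between inhibitor effects (2.43e-04).

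With an FDR of 0.05 and no fold limit, member calls for R1881 became 9 and 10 at 24 h without and with Senexin B and 8 at 72 h, those for Senexin B 7 and 6 without and with R1881, those for SNX631 5 and 7, the interaction at 72 h 3, the R1881 and inhibitor effects between experiments 2 and 1, and vehicle 7. In the pathway list the counts became 31 and 30, 33 and 34 for R1881, 19 and 22 for Senexin B, and 17 and 25 for SNX631, in the same order. The share of all genes at this looser limit is not given, so these counts are not rates. They do not show whether Notch genes respond more than other genes. At an FDR under 0.01 alone, 25.1% of genes passed for Senexin B and 26.9% for SNX631, both without R1881. With the longest transcript as length, levels were 4.57 (NOTCH1), 9.03 (NOTCH2), 12.3 (NOTCH3), 7.83 (JAG1), 18.1 (JAG2), 1.12 (HES1), 20.3 (HES6), 2.71 (HEY1) and 27.1 RPKM (RBPJ), with HES6 above JAG2.

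Leaving out a library gave 1 to 3 member calls for Senexin B with R1881, 0 to 1 for R1881 between experiments and 1 to 2 list calls for Senexin B without R1881. Sign changes came with ranges of -0.0977 to 0.0617 (DLL1), -0.12 to 0.0272 (HES6) for Senexin B without R1881, -0.0428 to 0.16 (DLL1), -0.00122 to 0.0687 (HES6) for Senexin B with R1881, -0.0156 to 0.0892 (NOTCH2), -0.0224 to 0.18 (DLL1), -0.0774 to 0.25 (HES1) for the 24 h interaction, -0.0231 to 0.0614 (NOTCH3) for R1881 between experiments, -0.32 to 0.15 (HES1), -0.44 to 0.10 (HEY1), -0.0505 to 0.00537 (RBPJ) for the inhibitor between experiments, -0.0327 to 0.00616 (NOTCH2) for vehicle between experiments, -0.0445 to 0.0267 (NOTCH2) for R1881 under SNX631, -0.0213 to 0.0538 (NOTCH2) for SNX631 with R1881 and -0.16 to 0.0347 (DLL1), -0.46 to 0.00351 (HES1), -0.0447 to 0.091 (HES6) for the 72 h interaction. All were uncalled values.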
